A study of Mus musculus with 6 samples.

Results

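Collagens are the triple-helical proteins that give connective tissue its form, and the mouse genome holds a family of genes for their chains. Every protein-coding gene whose symbol reads Col, a number, a and a number in GENCODE mouse release M21 was taken from the deposited tables, which gave 44 of 55401 genes. By textbook class, 11 of the 44 encode fibrillar chains, 6 encode the type IV chains of basement membranes, and 27 belong to other classes. Bulk RNA sequencing had been done on lamina propria cells of the colon, from male Apc Min/+ mice aged 5 to 6 weeks. Mice behind 3 libraries had received atorvastatin, a statin that blocks cholesterol synthesis, at 20 mg/kg by gavage on alternate days. Mice behind the other 3 libraries had received the vehicle, 2% Tween 80, by the same route and schedule. All 6 libraries thus carry the Apc Min allele, a truncating germline mutation under which intestinal adenomas form, and no library of another genotype is among them. The labels do not say whether a library stands for a separate animal or how long dosing lasted, so p-values speak of the spread among these 6 libraries, and part of it may be technical.

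Fibrillar collagens are the load-bearing fibres of the intestinal wall and are made mainly by fibroblasts. Type IV chains instead assemble into the sheet on which epithelium, endothelium and smooth muscle rest, and all of these cells as well as fibroblasts can make them. Other classes decorate fibrils, form beaded filaments, or cross the plasma membrane. Values are FPKM, fragments scaled to gene length and to the total of the library, so levels of different genes are set side by side per length. In bulk RNA, fewer cells of a type and less RNA per cell cannot be told apart.

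Most collagen genes tested had a higher mean with atorvastatin, but most also overlapped between groups, and none passed the test over all genes. A gene was tested if it had at least 1 FPKM in at least 3 libraries, which 27 of the 44 did. The test was limma on log2(FPKM + 1), and a difference below is atorvastatin minus vehicle on that scale. At an adjusted p of 0.05 (Benjamini-Hochberg over all genes) 0 of the 27 were called, as were 0 of 13590 genes in all (0%). At an unadjusted p under 0.05 there were 9 of the 27, all higher, which is 33.3%, where 974 of all genes tested (7.17%) were at that level, 3.13% higher and 4.04% lower. Differences were above 0 for 24 of the 27, where 47.0% of all genes tested were. Their median was 0.31, where that of all genes was -0.02. The groups did not overlap in 9 genes that were higher and 1 that was lower, where 5.53% and 8.85% of all genes were so, and 14.4% in either direction. Of the 27, Col6a5, Col20a1 and Col24a1 reached 1 FPKM in every atorvastatin library but in fewer than 3 vehicle libraries, so they entered the test through the group in which they were high. None of these 3 was at an unadjusted p under 0.05, but Col6a5 and Col20a1 were among the 9 that did not overlap and were higher, which leaves 7. All 3 also count among the 24 differences above 0. The other 24 genes tested were at 1 FPKM or more in every library, and the median of their differences was 0.30.

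The libraries set limits to these counts. Of the 27 genes, 24 were lower in atorvastatin library 2 than in both other atorvastatin libraries, as were 51.2% of all genes tested. Immunoglobulin genes took 30.2, 47.9 and 27.9% of the summed FPKM in atorvastatin libraries 1, 2 and 3, against 35.6, 38.4 and 30.4% in vehicle libraries 1, 2 and 3, and the share was highest in atorvastatin library 2. With all libraries rescaled without immunoglobulin and mitochondrial genes, the median difference of the collagen genes was 0.35, 12 of 27 were at an unadjusted p under 0.05, and the median of all genes was 0.04. Leaving out atorvastatin library 2 gave 14 of 27, whereas leaving out atorvastatin library 1 gave 0 and leaving out atorvastatin library 3 gave 1, with 7.42%, 4.01% and 3.45% of all genes tested at that level. Without vehicle library 1, 2 or 3 there were 2, 3 and 4 of 27, with 5.49%, 8.52% and 8.42% of all genes tested. Vehicle library 3 had the lowest mean correlation with the other libraries, 0.944 where the rest had 0.957 to 0.961. Collagen transcripts are long, with a median of 6119 nt for the longest transcript of the 27 genes and 2971 nt for all genes tested. With the trend on transcript length removed from each library the median difference was 0.20 and 24 of 27 were above 0. The difference of Col12a1, with a transcript of 11511 nt, then went from 0.33 to 0.18. That of Col27a1 went from 0.33 to 0.22 and that of Col6a5 from 0.31 to 0.18. Those of Col9a3 and Col13a1 instead went up, from 0.54 to 0.56 and from 0.31 to 0.33.

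Type IV chains, which form the network of basement membranes, had a median difference of 0.47, where fibrillar chains had 0.26 and the other classes 0.31. The fibrillar median includes Col24a1, and that of the other classes includes Col6a5 and Col20a1. These genes entered the test through the atorvastatin libraries. Of their 6 genes 4 were tested, all 4 differences were above 0, and 3 were at an unadjusted p under 0.05. Over all genes tested, 47.0% were above 0 and 7.17% were at that p. Col4a1 (ENSMUSG00000031502) encodes a chain of the network found in nearly all basement membranes, and had 184, 128 and 176 FPKM in atorvastatin libraries 1, 2 and 3, against 107, 112 and 113 FPKM in vehicle libraries 1, 2 and 3. Each atorvastatin library lay above every vehicle library, with a mean of 162 ± 30.3 FPKM in atorvastatin libraries and 110.45 ± 3.40 FPKM in vehicle libraries (SD, n = 3 each). Its difference was 0.54 (SE 0.18, unadjusted p = 0.0191, adjusted p = 0.693), with a 95% interval of 0.12 to 0.95 in limma. Col4a2 (ENSMUSG00000031503), whose chain joins a pair of Col4a1 chains in the same trimer, had 121, 79.1 and 116 FPKM in atorvastatin libraries 1, 2 and 3, against 67.9, 75.1 and 73.4 FPKM in vehicle libraries 1, 2 and 3. These groups did not overlap either, and the difference was 0.52 (SE 0.19, unadjusted p = 0.0292, adjusted p = 0.693) in limma. Both genes were lowest in library 2 among the atorvastatin libraries, and the 3 vehicle libraries lay close together. Leaving out any single library kept the difference of Col4a1 between 0.44 and 0.70 and that of Col4a2 between 0.41 and 0.71.

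Within each library the ratio of Col4a1 to Col4a2 was nearly fixed, at 1.52, 1.61 and 1.51 with atorvastatin and 1.57, 1.49 and 1.54 with vehicle. The pair lies head to head on chromosome 8 (mm10), Col4a1 at 11198423 to 11312826 on the minus strand and Col4a2 at 11312805 to 11449287 on the plus strand, so their annotated 5′ ends overlap by 22 bases. The stretch around both starts is shown because this pair, whose groups did not overlap, shares it. It is written on the plus strand from 5′ to 3′ (chr8:11312777-11312854, GRCm38.p6, RefSeq), and capitals mark the 22 bases that lie in both transcripts.
Col4a1 and Col4a2: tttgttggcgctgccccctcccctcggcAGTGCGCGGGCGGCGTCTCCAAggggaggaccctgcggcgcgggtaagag
RefSeq promoter windows of 250 bases before and 50 after a start were at hand for 35 of the 44 genes, and those of Col4a1 and Col4a2 share these 78 bases. Reads from this overlap could be given to either gene, since no source used here gives the strand setting.

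A second pair of type IV genes lies head to head on the X chromosome. Col4a5 (141475385 to 141689234, plus strand) encodes a chain that assembles with Col4a3 and Col4a4 or with Col4a6, and had 11.8, 9.01 and 13.4 FPKM in atorvastatin libraries 1, 2 and 3, against 7.77, 7.78 and 9.15 FPKM in vehicle libraries 1, 2 and 3. Atorvastatin library 2 lay just under vehicle library 3, and the difference was 0.41 (SE 0.16, unadjusted p = 0.0362, adjusted p = 0.693) in limma. Col4a6 (141165403 to 141474076, minus strand) encodes its partner in smooth muscle basement membranes, and had 3.44, 2.41 and 4.18 FPKM in atorvastatin libraries 1, 2 and 3, against 2.57, 2.99 and 2.71 FPKM in vehicle libraries 1, 2 and 3. These groups overlapped, with a difference of 0.19 (SE 0.17, unadjusted p = 0.296, adjusted p = 0.792) in limma. Per library the ratio of Col4a5 to Col4a6 ranged from 3.21 to 3.74 with atorvastatin and from 2.60 to 3.38 with vehicle, a wider spread than that of Col4a1 to Col4a2, though the difference in spread was not tested. The starts of Col4a5 and Col4a6 in the RefSeq windows are 1343 bases apart. Both windows (chrX:141475169-141475468 on the plus strand and chrX:141474027-141474326 on the minus strand, GRCm38.p6) are printed on the strand of their gene to set them against the pair on chromosome 8, with capitals at GGGCGG, the GC box, and CCAAT, on either strand.
Col4a5: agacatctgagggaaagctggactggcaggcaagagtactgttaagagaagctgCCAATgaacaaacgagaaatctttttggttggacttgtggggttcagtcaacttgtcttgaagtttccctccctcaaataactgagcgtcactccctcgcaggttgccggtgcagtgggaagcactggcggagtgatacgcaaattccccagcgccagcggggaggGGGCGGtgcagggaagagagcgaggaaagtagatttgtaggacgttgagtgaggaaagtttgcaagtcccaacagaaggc
Col4a6: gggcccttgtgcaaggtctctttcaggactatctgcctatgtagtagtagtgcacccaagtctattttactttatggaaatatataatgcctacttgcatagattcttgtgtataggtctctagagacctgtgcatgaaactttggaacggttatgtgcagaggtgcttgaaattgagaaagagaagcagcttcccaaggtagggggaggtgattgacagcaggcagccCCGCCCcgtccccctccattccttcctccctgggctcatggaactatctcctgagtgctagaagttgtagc
The Col4a5 window holds 1 GGGCGG and 1 CCAAT, and the Col4a6 window holds 1 GGGCGG and 0 CCAAT. In the windows of Col4a1 and Col4a2 there are 1 and 3 GGGCGG and 1 CCAAT each. Of all 32851 windows 35.7% hold GGGCGG, 37.4% hold CCAAT and 13.6% hold TATAAA, counted on both strands, and of the 38 collagen windows 60.5%, 34.2% and 13.2% do. None of these 4 type IV windows holds TATAAA. A match is only a run of letters, and binding was not measured.

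Col4a3 and Col4a4, chains of the kidney filter and a few other basement membranes, were near the floor of the data. They too lie head to head, on chromosome 1, with 71 bases between their annotated ends. Col4a3 had 0.26, 0.26 and 0.26 FPKM with atorvastatin, against 0.13, 0.19 and 0.10 FPKM with vehicle. Col4a4 had 0.15, 0.25 and 0.22 FPKM with atorvastatin, against 0.14, 0.07 and 0.12 FPKM with vehicle. In both genes the atorvastatin libraries all lay above the vehicle libraries, at 0.26 FPKM or less, and the exact two-sided permutation test gave p = 0.1 for each, the smallest that 3 against 3 libraries allow. Summed over the 6 type IV genes the level was 320.1, 219 and 311 FPKM in atorvastatin libraries 1, 2 and 3, against 185, 198 and 198 FPKM in vehicle libraries 1, 2 and 3. The sums did not overlap and their means were in a ratio of 1.46. Most of each sum came from Col4a1 and Col4a2. Their means were 162 and 105 FPKM of 283 with atorvastatin, and 110 and 72.1 FPKM of 194 with vehicle. The sum thus largely repeats that pair, while Col4a5 and Col4a6 overlapped between groups.

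**Figure D1:**
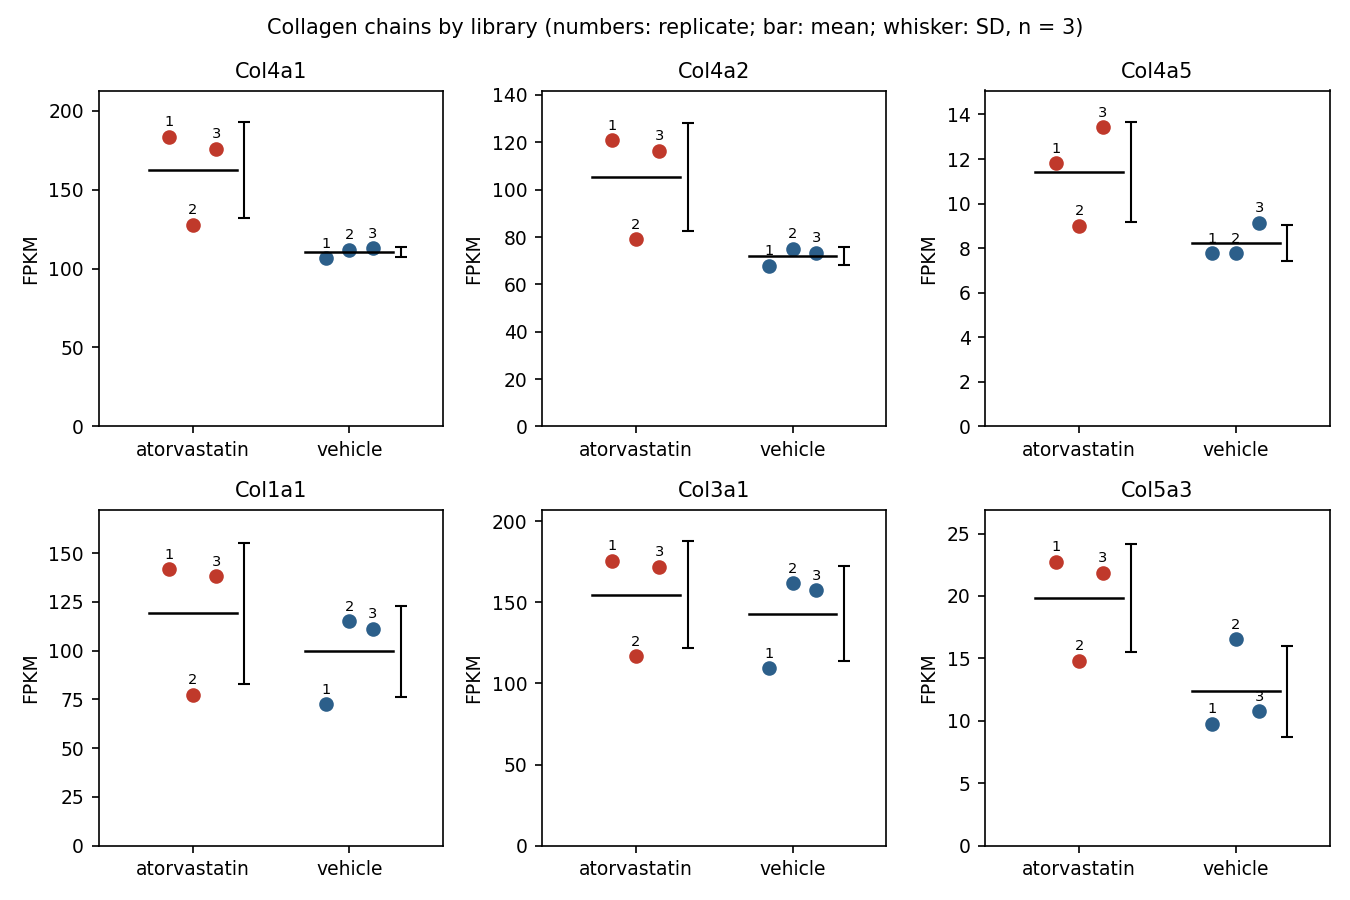
FPKM of 6 collagen chains in each library, with points numbered by replicate, the mean as a bar and the SD as a whisker (n = 3 per group). For Col4a1 and Col4a2 the atorvastatin points all lie above the vehicle points, and Col4a5, Col1a1, Col3a1 and Col5a3 overlap between groups, with atorvastatin library 2 the lowest of its group in all 6 panels.

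Fibrillar chains were the most abundant class, and the main ones overlapped between groups. Type I collagen is a pair of Col1a1 chains wound with a Col1a2 chain and is the chief fibre of most connective tissue. Col1a1 had 142, 77.5 and 138 FPKM in atorvastatin libraries 1, 2 and 3, against 72.6, 115 and 111 FPKM in vehicle libraries 1, 2 and 3. Atorvastatin library 2 and vehicle library 1 were both far below the rest, and the difference was 0.23 with a 95% interval of -0.46 to 0.93 in limma. Col1a2 had 71.9, 53.6 and 75.9 FPKM with atorvastatin, against 53.8, 68.4 and 65.6 FPKM with vehicle, with a difference of 0.09 (95% interval -0.33 to 0.52). The ratio of Col1a1 to Col1a2 ranged from 1.45 to 1.98 with atorvastatin and from 1.35 to 1.70 with vehicle. Col3a1, which forms fibres of its own chain in stretchable organs such as the gut, had the highest mean of the collagen genes over all 6 libraries, though Col4a1 was higher in each atorvastatin library. Its level was 176, 117 and 172 FPKM with atorvastatin, against 109, 162 and 158 FPKM with vehicle, with a difference of 0.11 (95% interval -0.45 to 0.67). These intervals are wide enough to hold a rise or a fall, and the difference of Col3a1 turned to -0.07 and that of Col1a2 to -0.01 without vehicle library 1.

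Type V chains sit inside type I fibrils and help to set their width. Col5a1 had 45.9, 29.98 and 42.8 FPKM with atorvastatin, against 26.9, 35.9 and 28.5 FPKM with vehicle. Col5a2 had 33.1, 24.5 and 34.2 FPKM with atorvastatin, against 21.6, 26.5 and 29.9 FPKM with vehicle. Their differences were 0.36 (SE 0.20) and 0.22 (SE 0.18), both from groups that overlapped. Col5a3, the least abundant type V chain, had 22.7, 14.8 and 21.9 FPKM in atorvastatin libraries 1, 2 and 3, against 9.78, 16.5 and 10.8 FPKM in vehicle libraries 1, 2 and 3. Vehicle library 2 lay above atorvastatin library 2. Its difference of 0.65 (SE 0.24, unadjusted p = 0.0300, adjusted p = 0.693) in limma was the highest of the 27 collagen genes tested. The gene lies on chromosome 9 at 20770050 to 20815067, minus strand. The ratio of Col5a3 to Col5a1 was 0.495, 0.495 and 0.511 with atorvastatin and 0.364, 0.460 and 0.378 with vehicle, and these did not overlap. The RefSeq window of Col5a3 is printed because the gene had the highest difference (chr9:20815018-20815317, minus strand, GRCm38.p6), with capitals as for Col4a5.
Col5a3: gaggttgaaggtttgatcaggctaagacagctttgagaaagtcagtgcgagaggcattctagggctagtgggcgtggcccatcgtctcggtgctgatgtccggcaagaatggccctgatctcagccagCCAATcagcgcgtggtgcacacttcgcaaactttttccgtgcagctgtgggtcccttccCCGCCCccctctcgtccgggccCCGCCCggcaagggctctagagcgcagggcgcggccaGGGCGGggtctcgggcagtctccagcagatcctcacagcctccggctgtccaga
It holds 3 GGGCGG, 1 CCAAT and 0 TATAAA on either strand.

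The remaining fibrillar genes were low. Col27a1, known from cartilage, had 4.05, 3.20 and 4.54 FPKM with atorvastatin, against 2.90, 2.76 and 3.06 FPKM with vehicle. The groups did not overlap, and its difference was 0.33 (SE 0.13, unadjusted p = 0.0424, adjusted p = 0.693) in limma. Col24a1, a minor fibrillar chain, had 1.27, 1.12 and 1.28 FPKM with atorvastatin, against 1.14, 0.72 and 0.63 FPKM with vehicle, with a difference of 0.29 (SE 0.14). Col2a1, Col11a1 and Col11a2, chains of cartilage fibrils, did not pass the filter. Col11a2 reached 0.82 to 1.11 FPKM with atorvastatin and 0.73 to 0.82 FPKM with vehicle, and the others were at 0.06 FPKM or less in every library. Of the 11 fibrillar genes 8 were tested, and all 8 differences were above 0 with a median of 0.26. Among them 2 were at an unadjusted p under 0.05, where 7.17% of all genes tested were. Summed over the class, the level was 497, 322 and 492 FPKM with atorvastatin, against 299, 428 and 408 FPKM with vehicle.

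**Figure D2:**
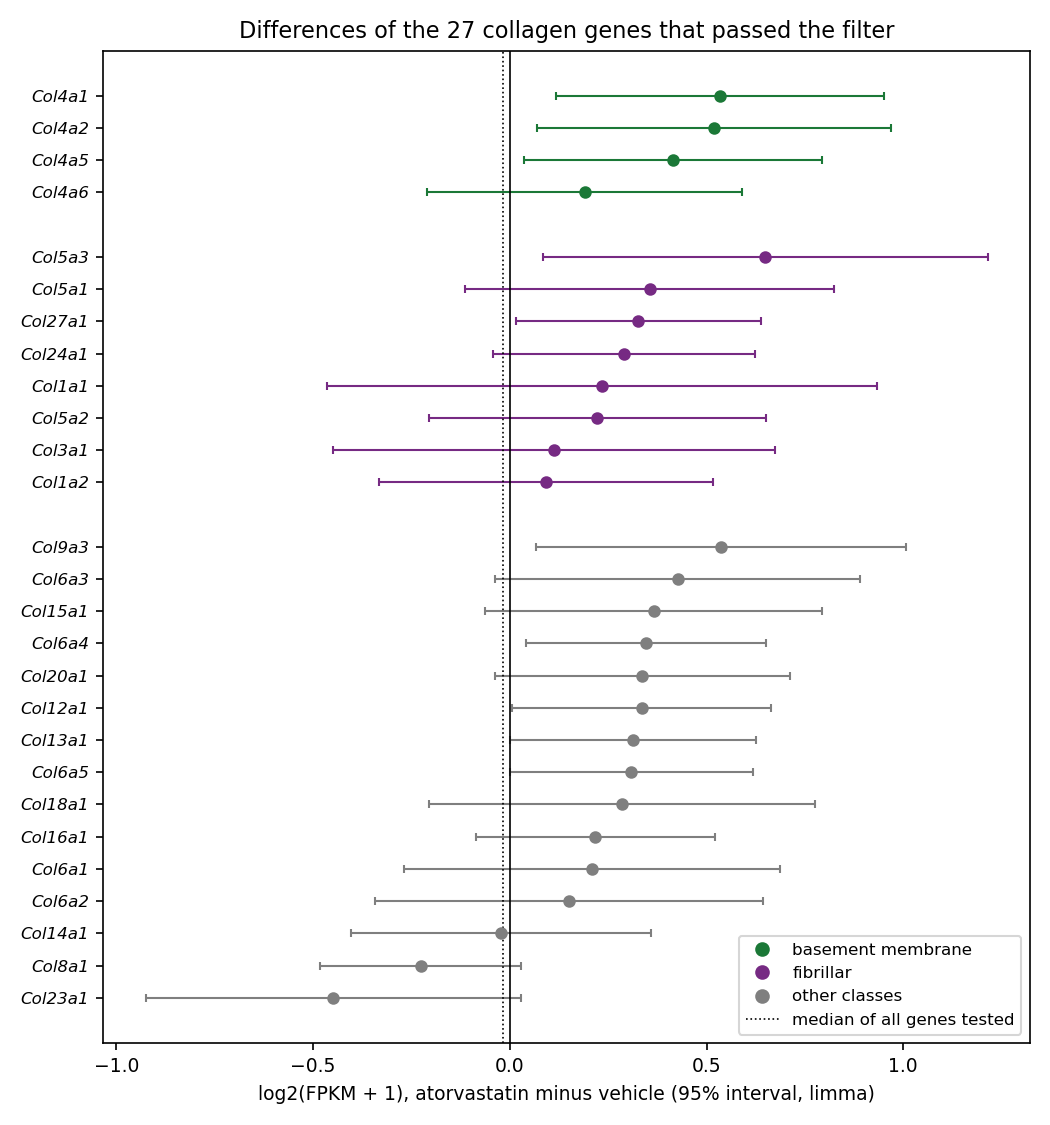
Difference of log2(FPKM + 1), atorvastatin minus vehicle, with its 95% interval from limma for the 27 tested collagen genes, grouped as basement membrane, fibrillar and other classes. Points lie above 0 for 24 genes, and the intervals of 9 genes do not reach 0, while the dotted line marks the median of all genes at -0.02.

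The share of type IV chains among collagen transcripts was higher with atorvastatin, while fibrillar and other shares overlapped. Type IV chains made up 26.0, 25.8 and 25.5% of the summed collagen FPKM in atorvastatin libraries 1, 2 and 3, against 24.0, 20.0 and 21.2% in vehicle libraries 1, 2 and 3. The 3 atorvastatin libraries were close to each other and above every vehicle library. This share, like the type IV sum, rests mostly on Col4a1 and Col4a2. Fibrillar chains took 38.1 to 40.4% with atorvastatin and 38.8 to 43.6% with vehicle, and the other classes 33.7 to 36.1% with atorvastatin and 35.2 to 37.3% with vehicle, both overlapping. Between the most abundant chains of the classes, the ratio of Col4a1 to Col3a1 was 1.05, 1.10 and 1.02 with atorvastatin and 0.976, 0.691 and 0.716 with vehicle. Of the fibrillar chains only Col3a1 was set against Col4a1 in this way, so the ratio does not speak for Col1a1. Such ratios within a library do not depend on how the library was scaled. Atorvastatin library 2, which had low values of nearly all collagens, had a type IV share and a ratio like those of the other atorvastatin libraries. The difference between the classes was not tested. All 44 genes summed to 1232, 847 and 1220.2 FPKM with atorvastatin, against 771, 991 and 936 FPKM with vehicle, and these were 0.186 to 0.343% of the summed FPKM of a library with atorvastatin and 0.189 to 0.240% with vehicle. The 6 most abundant, Col3a1, Col6a1, Col4a1, Col1a1, Col4a2 and Col6a2, made up 66.2 to 70.6% of collagen FPKM in the 6 libraries.

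The other classes hold 27 genes, of which 15 were tested, with 12 differences above 0, 3 below 0 and a median of 0.31. Their 4 genes at an unadjusted p under 0.05, where 7.17% of all genes tested were, were Col6a4, Col9a3, Col12a1 and Col13a1. Type VI collagen builds beaded filaments that link cells to the matrix, and its main trimer holds Col6a1, Col6a2 and another chain. Col6a1 had 166, 119.5 and 160.2 FPKM with atorvastatin, against 104, 142 and 139 FPKM with vehicle. Col6a2 had 79.7, 54.4 and 76.6 FPKM with atorvastatin, against 50.4, 72.0 and 66.7 FPKM with vehicle. Both overlapped between groups, with differences of 0.21 (95% interval -0.27 to 0.69) and 0.15 (95% interval -0.34 to 0.64). Their ratio was steady, at 2.09 to 2.20 with atorvastatin and 1.98 to 2.09 with vehicle. Among the chains that complete the trimer, Col6a3 had 24.7, 21.7 and 28.6 FPKM with atorvastatin, against 15.4, 24.1 and 16.3 FPKM with vehicle, with a difference of 0.43 (SE 0.20). Col6a4 and Col6a5, which can take the place of Col6a3, did not overlap between groups. Col6a4 had 2.38, 1.65 and 2.20 FPKM with atorvastatin, against 1.34, 1.43 and 1.46 FPKM with vehicle, with a difference of 0.34 (SE 0.13, unadjusted p = 0.0319, adjusted p = 0.693) in limma. Col6a5 had 1.78, 1.2 and 1.69 FPKM with atorvastatin, against 0.99, 1.11 and 1.06 FPKM with vehicle, with a difference of 0.31 (SE 0.13, unadjusted p = 0.0502, adjusted p = 0.693) in limma. The related chain Col6a6 was at 0.07 FPKM or less in every library.

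Chains that sit on the surface of fibrils (the FACIT class) were mixed. Col12a1 had 18.2, 13.7 and 18.5 FPKM in atorvastatin libraries 1, 2 and 3, against 13.3, 12.8 and 12.8 FPKM in vehicle libraries 1, 2 and 3. The groups did not overlap, though atorvastatin library 2 was close to the vehicle libraries, and the difference was 0.33 (SE 0.14, unadjusted p = 0.0476, adjusted p = 0.693) in limma. Col14a1, a close relative, had 26.1, 21.4 and 31.0 FPKM with atorvastatin, against 28.2, 27.2 and 23.6 FPKM with vehicle, with a difference of -0.02 (95% interval -0.40 to 0.36) that was 0.05 when libraries were rescaled without immunoglobulin and mitochondrial genes. Col16a1 had 15.1, 11.5 and 14.1 FPKM with atorvastatin, against 11.7, 11.8 and 10.95 FPKM with vehicle, overlapping, with a difference of 0.22 (SE 0.13). Col9a3, a chain of type IX collagen in cartilage, had 2.43, 1.64 and 3.52 FPKM with atorvastatin, against 1.36, 1.32 and 1.45 FPKM with vehicle, with a difference of 0.54 (SE 0.20, unadjusted p = 0.0309, adjusted p = 0.693) in limma. Its partner chains Col9a1 and Col9a2 were at 0.12 FPKM or less, with 0 in several libraries. Col20a1 had 1.06, 1.45 and 1.40 FPKM with atorvastatin, against 0.96, 1.03 and 0.51 FPKM with vehicle, with a difference of 0.34 (SE 0.16). Col19a1 and Col22a1 were below the filter at 0.13 FPKM or less.

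The multiplexins Col15a1 and Col18a1 are proteoglycans of the basement membrane zone, and the tail of the Col18a1 protein yields endostatin. Col15a1 had 36.3, 25.5 and 35.7 FPKM with atorvastatin, against 21.4, 28.6 and 24.5 FPKM with vehicle. Col18a1 had 28, 18.7 and 28.3 FPKM with atorvastatin, against 20.4, 23.8 and 16.5 FPKM with vehicle. Their differences were 0.37 (SE 0.18) and 0.28 (SE 0.21), and in both genes atorvastatin library 2 lay within the vehicle range.

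Members with lower values under atorvastatin were few. Col8a1, a short chain that forms networks in vessel walls and the cornea, had 4.15, 3.63 and 4.37 FPKM in atorvastatin libraries 1, 2 and 3, against 4.77, 4.72 and 5.21 FPKM in vehicle libraries 1, 2 and 3. Each atorvastatin library was below every vehicle library, with a difference of -0.23 (SE 0.11, unadjusted p = 0.0743, adjusted p = 0.696) in limma. Its partner Col8a2 lay below the filter, at 0.33, 0.23 and 0.56 FPKM with atorvastatin, against 0.60, 0.62 and 0.68 FPKM with vehicle, and did not overlap either (exact two-sided permutation p = 0.1). With Col10a1 added, this class summed to 4.56, 3.86 and 4.93 FPKM with atorvastatin, against 5.43, 5.41 and 5.89 FPKM with vehicle. Col23a1, a transmembrane collagen, had 4.03, 5.68 and 6.38 FPKM in atorvastatin libraries 1, 2 and 3, against 8.80, 8.41 and 5.83 FPKM in vehicle libraries 1, 2 and 3. Vehicle library 3 lay within the atorvastatin range, and the difference was -0.45 (SE 0.20, unadjusted p = 0.0617, adjusted p = 0.696) in limma. Col17a1, the transmembrane collagen that anchors epithelial cells to the basement membrane, had 0.21, 0.16 and 0.27 FPKM with atorvastatin, against 0.41, 0.39 and 0.34 FPKM with vehicle (exact two-sided permutation p = 0.1). Col13a1, a transmembrane collagen of cell junctions, was instead higher, with 2.35, 2.39 and 2.59 FPKM with atorvastatin, against 2.06, 1.93 and 1.37 FPKM with vehicle and a difference of 0.31 (SE 0.13, unadjusted p = 0.04998, adjusted p = 0.693) in limma. Col19a1 was listed at 0 in each atorvastatin library and at 0.05, 0.01 and 0.02 FPKM in the vehicle libraries. The anchoring fibril gene Col7a1 was at 0.30 to 0.54 FPKM with atorvastatin and 0.29 to 0.33 FPKM with vehicle, and Col28a1 at 0.76 to 1.02 FPKM with atorvastatin and 0.70 to 0.89 FPKM with vehicle. Col10a1, Col25a1 and Col26a1 were at 0.08 FPKM or less in every library. Over all 44 genes, 17 were below the filter, and in those 2 did not overlap and were higher (Col4a3 and Col4a4) and 3 did not overlap and were lower (Col8a2, Col17a1 and Col19a1). Of all 18816 genes below the filter with a value above 0 in some library, 4.64% did not overlap and were higher and 2.22% did not overlap and were lower.

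**Figure D3:**
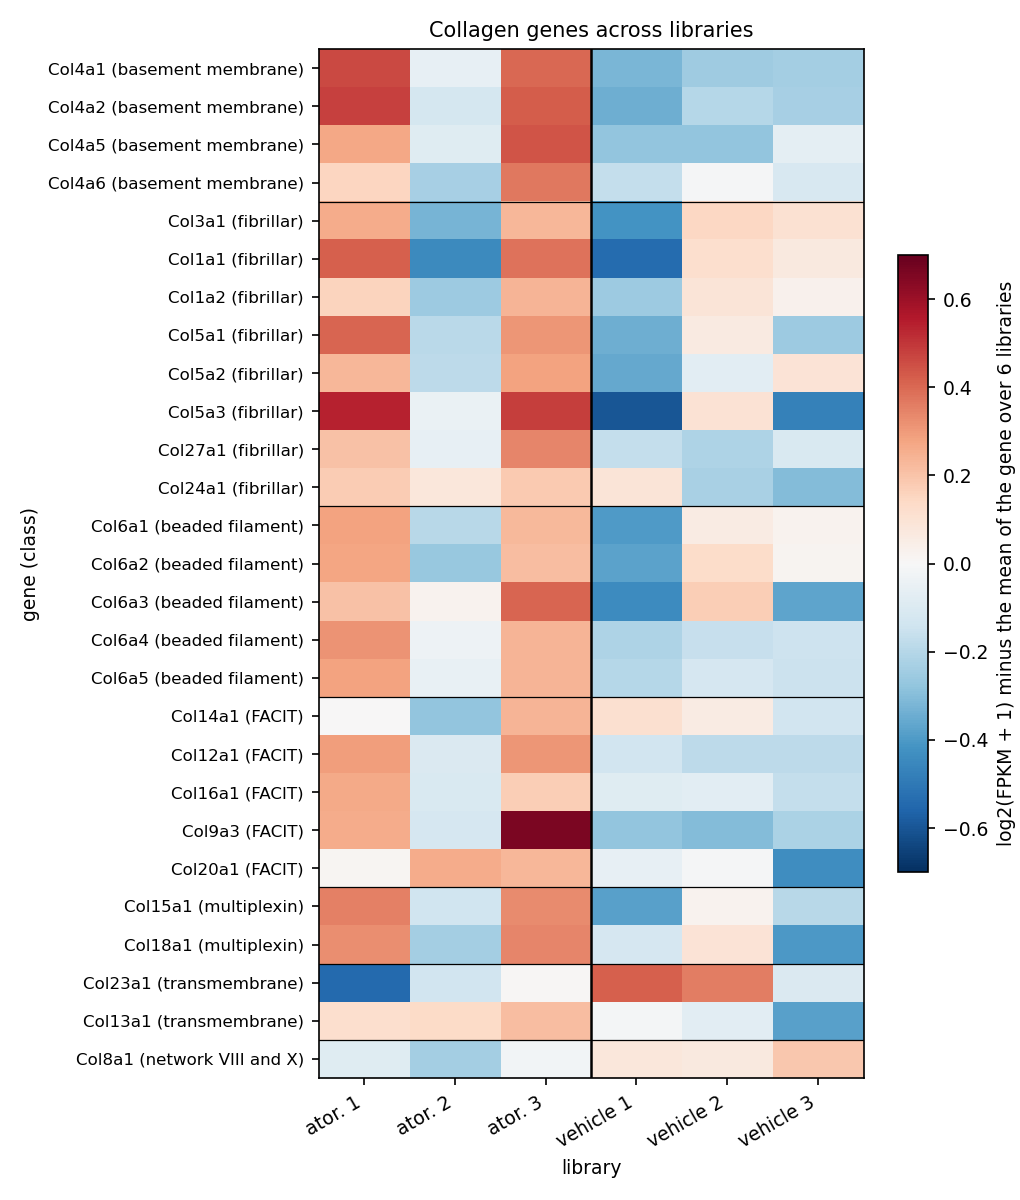
Heatmap of log2(FPKM + 1) minus the mean of each gene over the 6 libraries for the 27 tested collagen genes, with atorvastatin libraries left of vehicle libraries and classes separated by lines. Atorvastatin libraries 1 and 3 are high in most rows, atorvastatin library 2 is lower than both in 24 rows, and Col23a1 and Col8a1 run against the rest.

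Markers of the cells that can make collagen were read beside these values. Over all genes tested, 47.0% of differences were above 0 and 7.17% were at an unadjusted p under 0.05. The 8 fibroblast markers, all tested, had 3 differences above 0, and their summed level was 916 to 1127 FPKM with atorvastatin and 959.6 to 1243 FPKM with vehicle. All 11 smooth muscle and pericyte markers had differences above 0, with sums of 1019 to 1418 FPKM with atorvastatin and 804 to 1518 FPKM with vehicle, and Myh11, smooth muscle myosin, and Pdgfrb, a receptor of pericytes, were at an unadjusted p under 0.05. Vehicle library 3 had the highest smooth muscle sum of all 6 libraries. Of the 10 endothelial markers 7 had differences above 0, with sums of 262 to 340.3 FPKM with atorvastatin and 299.6 to 318 FPKM with vehicle, and Lyve1, a lymphatic marker, was lower at an unadjusted p under 0.05. Epithelial markers were low, with 5 of 8 tested and 0 of the 5 differences above 0, and summed to 15.9 to 42.0 FPKM with atorvastatin and 26.0 to 42.3 FPKM with vehicle. Mesothelial markers summed to 0.29 to 0.38 FPKM with atorvastatin and 0.44 to 0.60 FPKM with vehicle with Lrrn4 at 0 throughout, and adipocyte markers to 0.22 to 0.38 FPKM with atorvastatin and 0 to 0.41 FPKM with vehicle. Enteric glia markers summed to 2.20 to 3.07 FPKM with atorvastatin and 2.72 to 3.22 FPKM with vehicle. Ptprc, the pan-leukocyte CD45 gene, bears on the label of lamina propria cells and was at 13.9 to 19.5 FPKM with atorvastatin and 17.7 to 18.6 FPKM with vehicle. Plasma cell markers summed to 14749 to 33134 FPKM with atorvastatin and 18091 to 24796 FPKM with vehicle and T cell markers to 15.6 to 19.7 FPKM with atorvastatin and 15.7 to 22.9 FPKM with vehicle. B cell markers were lower in each atorvastatin library, at 238 to 253 FPKM with atorvastatin and 302 to 406 FPKM with vehicle, and macrophage markers summed to 95.7 to 104 FPKM with atorvastatin and 56.8 to 122 FPKM with vehicle.

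Each class sum was also divided by the fibroblast, the smooth muscle and pericyte, and the endothelial marker sums. Summed type IV FPKM per summed fibroblast marker FPKM was 0.284, 0.239 and 0.279 with atorvastatin, against 0.193, 0.204 and 0.160 with vehicle. Per endothelial marker it was 0.941, 0.835 and 0.918 with atorvastatin, against 0.607, 0.622 and 0.662 with vehicle. In both, the groups did not overlap. The other classes per endothelial marker, at 1.22, 1.17 and 1.24 with atorvastatin against 0.941, 1.15 and 1.10 with vehicle, did not overlap either. Lyve1, part of the endothelial sum, had 80.4, 70.7 and 84.3 FPKM with atorvastatin, against 95.9, 102 and 94.5 FPKM with vehicle. It thus lowered the divisor in the atorvastatin libraries, and how far the endothelial ratios rest on it was not tested. Summed type IV FPKM per smooth muscle and pericyte marker was 0.226, 0.215 and 0.277 with atorvastatin, against 0.212, 0.246 and 0.131 with vehicle, and these overlapped. Fibrillar FPKM per fibroblast marker FPKM was 0.442, 0.352 and 0.442 with atorvastatin, against 0.311, 0.442 and 0.328 with vehicle, which overlapped as well. So did fibrillar FPKM per endothelial marker and per smooth muscle and pericyte marker. The other classes per fibroblast marker and per smooth muscle and pericyte marker overlapped too. The part of cell composition in the collagen values was not tested. Other than Lrrn4, no marker in any list was at 0 in all 6 libraries.

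**Figure D4:**
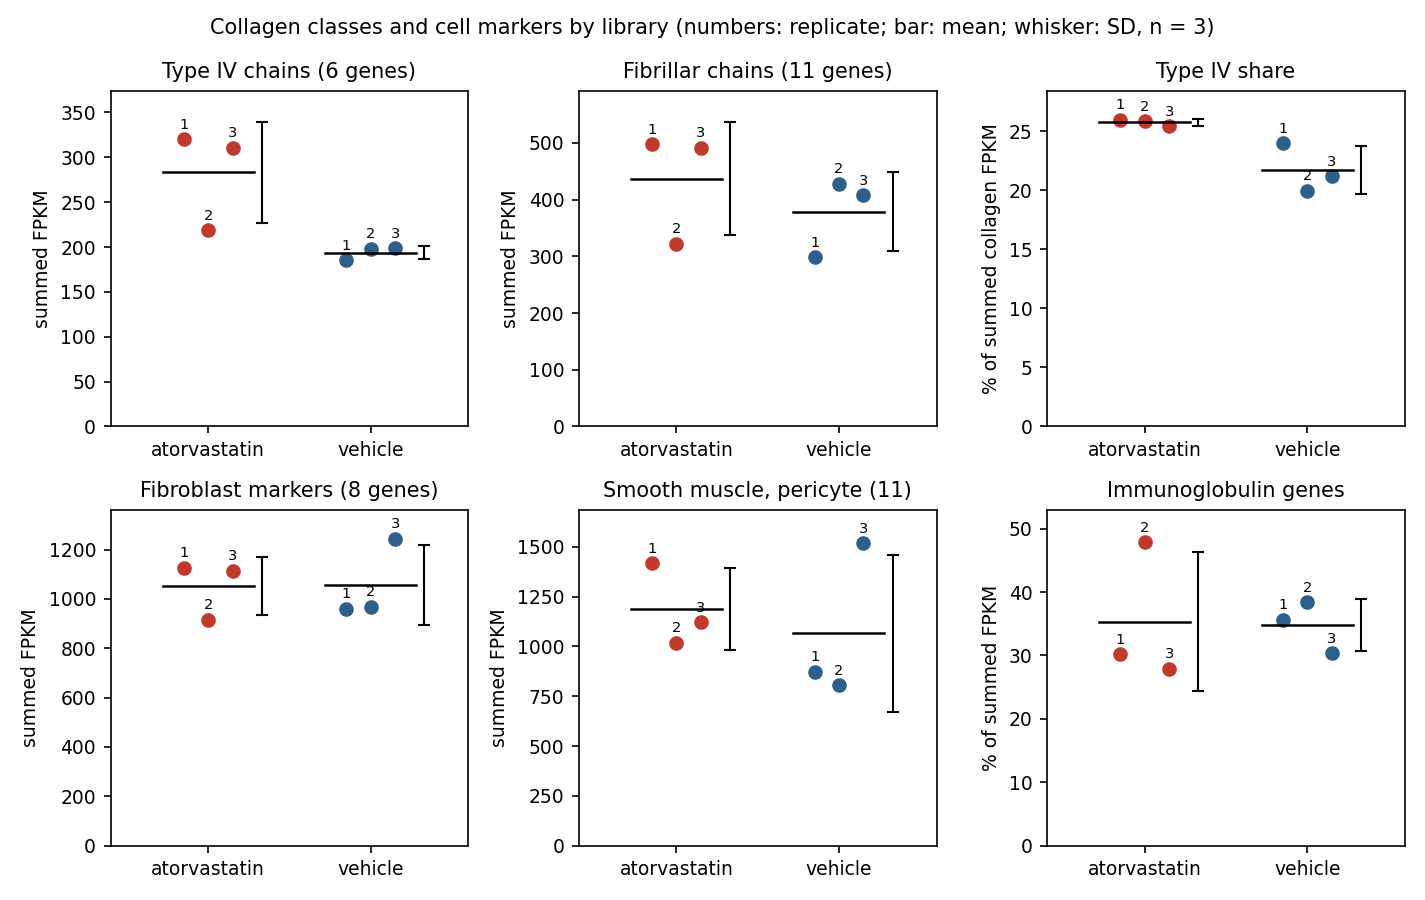
Summed FPKM of the type IV and fibrillar genes, the type IV share of summed collagen FPKM, summed FPKM of fibroblast and of smooth muscle and pericyte markers, and the immunoglobulin share of summed FPKM, by library (points numbered by replicate, bar for the mean, whisker for the SD, n = 3 per group). The type IV sum and share do not overlap between groups, and the other 4 panels do.

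Genes that modify, export and assemble collagen were counted from lists, and none passed the test over all genes. For the counts of every list below, 47.0% of all genes tested had a difference above 0. At an unadjusted p under 0.05 there were 7.17% of all genes tested. Among the genes listed for prolyl and lysyl modification, not all of which encode hydroxylases, 12 of 14 tested differences (15 listed) were above 0. Their median was 0.07, and 0 were at an unadjusted p under 0.05. P4hb, a subunit of prolyl hydroxylase, had 146, 155 and 142 FPKM with atorvastatin, against 135, 141 and 141 FPKM with vehicle, a difference of 0.09 (SE 0.13). Folding and export genes had 6 of 9 above 0 with a median of 0.09. Serpinh1, the collagen chaperone HSP47, had 66.2, 72.6 and 82.1 FPKM with atorvastatin, against 63.0, 50.9 and 112 FPKM with vehicle, with vehicle library 3 the highest and a difference of 0.04 (SE 0.29). Sec24d, a coat protein of the vesicles that carry procollagen, had 17.6, 18.6 and 18.9 FPKM with atorvastatin, against 14.5, 14.99 and 15.7 FPKM with vehicle, and its groups did not overlap, with a difference of 0.27 (SE 0.10, unadjusted p = 0.0303, adjusted p = 0.693) in limma. Genes listed for propeptide removal, not all of which encode enzymes, had 3 of 6 tested differences (8 listed) above 0 with a median of 0.07.

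Cross-linking enzymes had 6 of 6 differences above 0, with a median of 0.26. Pxdn, the peroxidase that links type IV chains to each other, had 7.12, 5.91 and 8.29 FPKM with atorvastatin, against 4.32, 5.30 and 5.08 FPKM with vehicle. The groups did not overlap, and its difference was 0.45 (SE 0.14, unadjusted p = 0.0165, adjusted p = 0.693) in limma. Loxl4, a lysyl oxidase, had 5.08, 3.67 and 6.00 FPKM with atorvastatin, against 3.76, 3.28 and 2.93 FPKM with vehicle, overlapping, with a difference of 0.44 (SE 0.17, unadjusted p = 0.0388, adjusted p = 0.693) in limma. Proteoglycans and other proteins bound to fibrils had 3 of 8 tested differences (10 listed) above 0, with a median of -0.02. Sparc, which binds fibrillar and type IV collagen, had 259.9, 191 and 263 FPKM with atorvastatin, against 193, 236 and 298 FPKM with vehicle and a difference of -0.02 (SE 0.22).

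The proteins that share the basement membrane with type IV collagen had 14 of 14 tested differences (15 listed) above 0, with a median of 0.32. Of these, 5 were at an unadjusted p under 0.05 and 5 did not overlap and were higher, Lama1 and Lama3 among them in both counts. Over all genes tested the shares were 7.17% and 5.53%. Without the 3 genes that reached 1 FPKM in fewer than 3 vehicle libraries, Lama1 and Lama3 included, both counts were 3 of 11. Hspg2, the proteoglycan perlecan, had 43.0, 29.2 and 40.8 FPKM in atorvastatin libraries 1, 2 and 3, against 25.8, 30.9 and 16.1 FPKM in vehicle libraries 1, 2 and 3, with a difference of 0.64 (SE 0.26, unadjusted p = 0.0449, adjusted p = 0.693) in limma. Lama5, a laminin chain of many adult basement membranes, had 6.52, 5.24 and 7.53 FPKM with atorvastatin, against 4.66, 5.22 and 3.33 FPKM with vehicle, with a difference of 0.46 (SE 0.18). Lama1 and Lama3 were near 1 FPKM, and both passed the filter through the atorvastatin libraries only. Lama1 had 1.56, 1.17 and 1.70 FPKM with atorvastatin, against 0.76, 0.77 and 0.85 FPKM with vehicle, and Lama3 had 1.2, 1.02 and 1.26 FPKM with atorvastatin, against 0.80, 0.84 and 0.51 FPKM with vehicle. The more abundant chains Lamb1 and Lamc1 overlapped between groups. Lamb1 had 46.8, 33.5 and 46.0 FPKM with atorvastatin, against 29.9, 33.1 and 34.4 FPKM with vehicle. Lamc1 had 53.8, 49.1 and 53.8 FPKM with atorvastatin, against 48.8, 50.8 and 29.3 FPKM with vehicle. Their differences were 0.35 (SE 0.16) and 0.32 (SE 0.22). Without vehicle library 3 the difference of Lamc1 was 0.07 and that of Hspg2 was 0.38. Several of these genes have long transcripts, up to 14187 nt for Hspg2. With the trend on transcript length removed, the differences of Hspg2, Lama5, Lama1 and Lama3 were lower, at 0.46, 0.31, 0.325 and 0.19. Those of Lamb1 and Lamc1 were then 0.29 and 0.21.

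Collagen receptors had 7 of 7 tested differences (10 listed) above 0, with a median of 0.28. Itga1, the integrin chain that prefers type IV collagen, had 3.68, 3.44 and 4.31 FPKM with atorvastatin, against 2.86, 2.76 and 3.06 FPKM with vehicle. Ddr1, a receptor kinase for collagen, had 7.18, 6.18 and 6.49 FPKM with atorvastatin, against 4.83, 5.90 and 4.78 FPKM with vehicle. Neither overlapped between groups, and the differences were 0.30 (SE 0.11) and 0.31 (SE 0.12). With the trend on transcript length removed, they were 0.15 for Itga1 and 0.29 for Ddr1. Itga11, the integrin chain for fibrillar collagen on fibroblasts, had 6.59, 5.19 and 6.59 FPKM with atorvastatin, against 3.25, 5.41 and 4.42 FPKM with vehicle, with a difference of 0.42 (SE 0.18). Their common partner Itgb1 had 88.8, 73.4 and 88.6 FPKM with atorvastatin, against 77.0, 67.4 and 95.3 FPKM with vehicle and a difference of 0.07 (SE 0.17). Enzymes that cleave collagen had 5 of 5 tested differences (7 listed) above 0 with a median of 0.31. Mmp2, the most abundant of them, had 114, 77.5 and 107 FPKM with atorvastatin, against 66.3, 80.3 and 92.9 FPKM with vehicle, overlapping, with a difference of 0.31 (SE 0.20). Over the collagen genes and all 8 lists, 0 genes passed an adjusted p of 0.05 in limma, the smallest adjusted p among the collagen genes being 0.693.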

How the data were processed

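RNA of colonic lamina propria cells was read in 3 atorvastatin and 3 vehicle libraries. The authors deposited FPKM values with 2 decimals, per the file headers. FastQC 0.11.2, Bowtie and the build mm10 are named in the submitters' processing notes, while quantifier, annotation and strand setting are in no source used here. Depth is unknown, so no interval from counts could be given.

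Names, biotypes and transcript lengths came from GENCODE M21 (GRCm38), which held 55141 of the 55401 gene IDs. Gene starts and ends are the deposited ones, equal to M21 for 38 of the 44 collagen genes. Members, classes, lists and tests were chosen with earlier results of these data known. Collagen genes that averaged at least 10 FPKM or had an unadjusted p under 0.05, and their partner chains, are given in every library, and from each list abundant genes and those at that p are named. The filter kept genes reaching 1 FPKM in 3 or more libraries. The test was limma-trend (limma 3.58.1, R 4.3.3) on log2(FPKM + 1), which understates differences of low genes. It had Benjamini-Hochberg adjustment over 13590 genes and no replicate block. The same test was also run on simulated data, where planted differences were larger than those of the collagen genes and noise was independent between genes. That run does not show how the test behaves at smaller differences or with shifts that genes of a library share. Collagen genes below the filter had an exact permutation test. Alternatives were a pseudocount of 0.1, other filters, other scalings, a length trend removed, robust variance, a replicate block and each library left out.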

Additional observations from a re-analysis of the deposited data

How the results depend on the processing

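Under all alternatives run, 0 collagen genes passed the adjusted threshold. Over all genes 0 passed as well, except without atorvastatin replicate 1 or 3, when 1 and 2 genes outside the family did (0 to 2 over the libraries left out). The 9 collagen genes at an unadjusted p under 0.05 became 7 to 12 under settings other than the block and 0 to 14 with a library left out. The labels give replicate numbers but state no pairing. Deviations of same-numbered libraries from their group means correlated at -0.11, 0.14 and -0.02, which with 3 libraries a group cannot settle whether they pair. With the replicate block 5 collagen genes were at an unadjusted p under 0.05. The median collagen difference was 0.15 to 0.36 under other settings and 0.25 to 0.41 with a library left out. Without a filter on low values all 44 genes entered, and the median of the classes outside fibrillar and type IV was 0.11. The difference of Col14a1 was 0.048 when rescaled without immunoglobulin and mitochondrial genes and -0.15 to 0.11 with a library left out, and that of Sparc was 0.056 when so rescaled, 0.036 with the length trend removed and -0.17 to 0.14 with a library left out. With a library left out the sign also turned for Col1a2 (-0.012 to 0.24), Col3a1 (-0.069 to 0.30), Col6a2 (-0.0007 to 0.32), Serpinh1 (-0.19 to 0.37) and Itgb1 (-0.041 to 0.21); the cause was not tested. All tested collagen genes other than Col1a2, Col3a1, Col6a2 and Col14a1 kept their sign under every alternative run, the 4 type IV genes and Col5a3 included. With 3 libraries a group and unknown depth, values under 1 FPKM are poorly resolved.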
